A study of Mus musculus with 4 samples.

Results

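The dermal papilla is the cluster of mesenchymal cells at the base of the hair follicle (HF), enclosed by the hair matrix. In growing HFs it secretes factors that act on the matrix keratinocytes and on the pigment cells above it, and its cells carry a gene set that sets them apart from other dermal fibroblasts. The genes described here are 8 that are known from it. *Alx4*, *Trps1* and *Sox18* encode transcription factors, *Inhba* encodes the subunit of activin A, *Fst* encodes follistatin, the secreted protein that binds activin, *Crabp1* encodes a cytosolic retinoic acid-binding protein, *Vcan* encodes the matrix proteoglycan versican and *Prom1* encodes the membrane protein prominin-1 (CD133). They were taken by symbol, and all 8 were found among the 32286 features of the files.

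Expression was measured on Visium slides, whose spots catch polyA RNA from the section above them and tag each molecule with a unique molecular identifier (UMI) and its place. RNA of neighbouring cells of different types can share a spot. All tissue was dorsal skin at P38 from 3 mice of 1 genotype, *Krox20-CreERT; R26-tdTomato*, in which Cre follows the *Krox20* locus, and all mice had received 4-hydroxytamoxifen at P2. There was no untreated or Cre-free group, and every comparison below is between places in this skin. The 4 slices each held a section of every mouse, so they are technical replicates, and their SD and the p-values do not cover differences between mice.

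The slices held between 19393026 and 26910422 UMIs over 6420 spots, of which 6411 with at least 250 genes were kept. Hair bulb spots were those in the top of their slice for *Top2a*, a gene of dividing matrix cells, or *Tyrp1*, a gene of pigment cells (at or above the 95th percentile, with at least 3 UMIs). This gave 511 bulb spots, 118 to 136 per slice, of which 8 were rich in both genes. Another 1589 spots lay 1 step from a bulb spot on the grid (neighbours), and 2921 lay 3 or more steps away (distant spots). Spots at least 2 steps away were also sorted by marker lists into compartments, such as fibroblast-rich (132 spots), interfollicular epidermis (IFE)-rich (429 spots) or inner root sheath (IRS)-rich (261 spots). Bulb spots were deeper than the others, with a median of 20220 UMIs against 16119 in neighbours and 9905 in distant spots, so each level is the share of a gene among all UMIs of the same spots, in CPM (counts per 1e6). CPM values are compared between places for 1 gene and not between genes.

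Bulb spots held more RNA of some other dermal papilla genes, which took no part in choosing them. Of 20 other dermal papilla genes, 16 passed the filter on low counts, and 7 were called higher in bulb than in distant spots, where called means an edgeR adjusted p under 0.05 over all genes and a log2 fold of at least 1. These were *Corin* (log2 fold 3.17 ± 0.24, SE), *Wif1* (2.62 ± 0.11), *Notum* (2.26 ± 0.26), *Rspo3*, *Hhip*, *Rspo4* and *Ndnf*. *Igf1*, which the papilla shares with other skin cells, was called lower (log2 fold −1.73 ± 0.16). The background was 7.12% of 13321 genes called higher and 17.4% called lower. This list was chosen with earlier results of these data known, so its count is a description. Against fibroblast-rich spots *Corin* (2.13 ± 0.46) and *Wif1* (3.13 ± 0.29) were called higher, beside 9.42% of genes. *Igf1* was called lower there (−2.29 ± 0.25), beside 16.8% of genes, and *Bmp4*, *Bmp6*, *Enpp2* and *Spon1* were not called.

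Among the 8 genes, *Crabp1* and *Inhba* marked the bulb, and *Alx4* was higher there but too sparse to set against fibroblast-rich spots. *Vcan* alone met the rule for being dermal that is given next, a rule that some fibroblast genes such as *Col1a1* did not meet. *Fst* was highest in the upper HF, *Trps1* was spread over the skin, and *Prom1* and *Sox18* were at or near 0 in bulb spots. A gene was said to mark the bulb where it was called higher than in both distant and fibroblast-rich spots, and to be also dermal where fibroblast-rich spots were called above IFE-rich spots. In bulb against distant spots 6 of the 8 passed the filter, and 3 of them, *Alx4*, *Crabp1* and *Inhba*, were called higher, beside 7.12% of all genes. *Alx4* passed the filter through the bulb, where it is highest, so its call carries little beyond its counts. The same holds for *Inhba* in the comparisons with compartments.

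**Figure D1:**
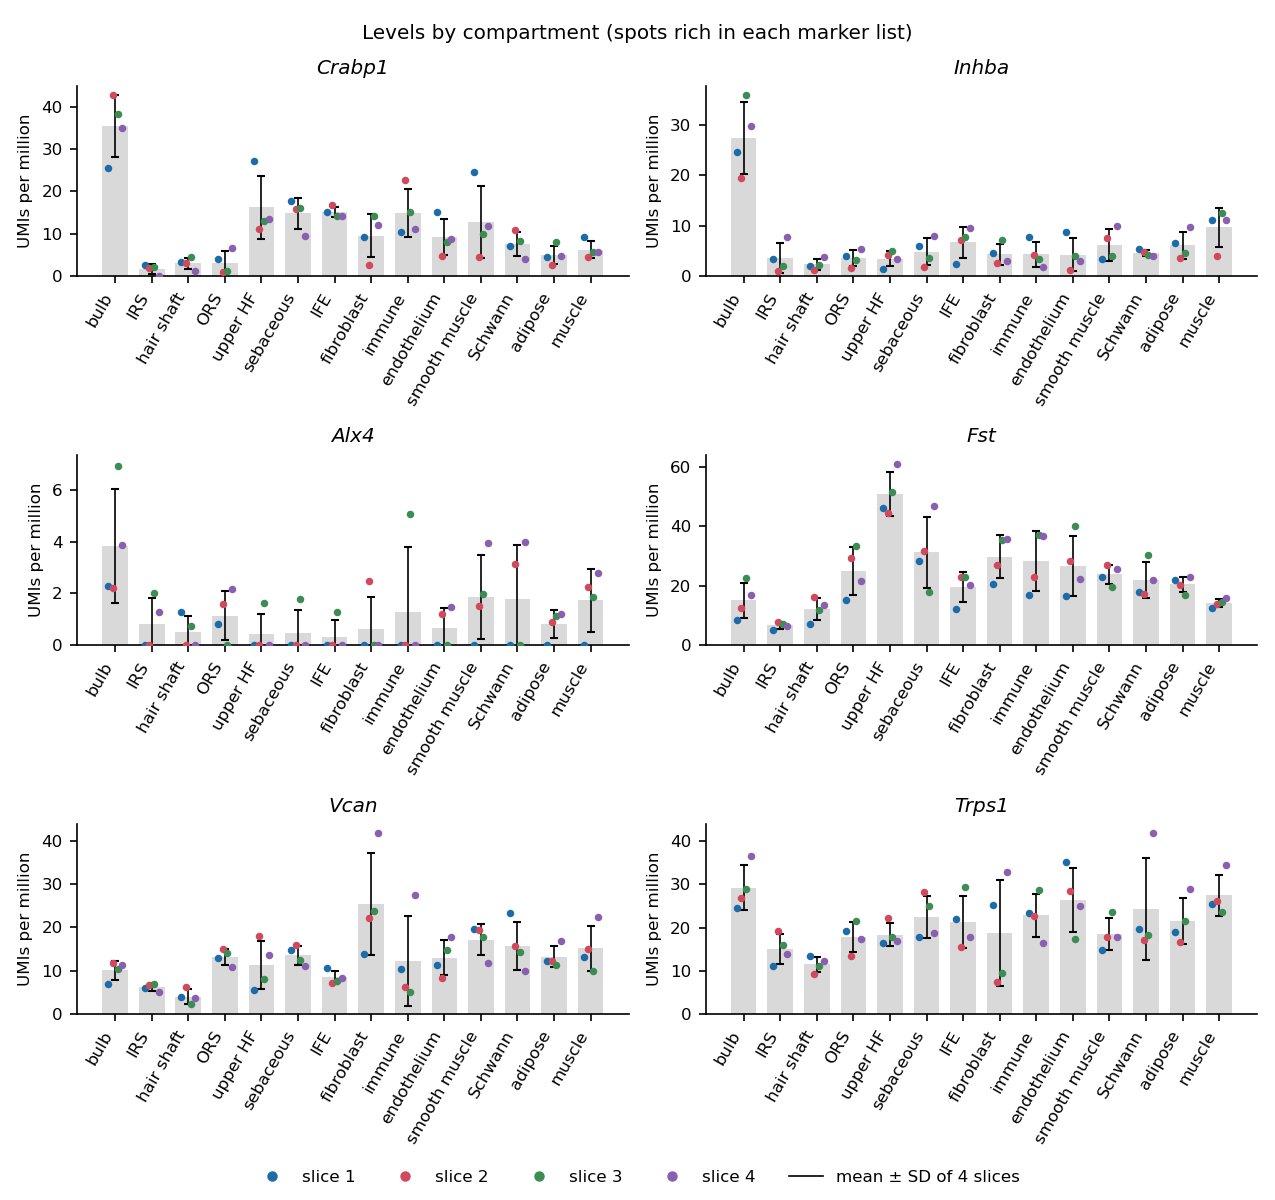
UMIs per 1e6 (vertical axis) of 6 genes in bulb spots and in spots rich in each of 13 marker lists, with 1 point per slice, bars for the mean and lines for the SD of 4 slices, cut at 0. *Crabp1* (35.4) and *Inhba* (27.4) were highest in bulb spots, *Fst* in upper HF-rich spots (50.9) and *Vcan* in fibroblast-rich spots (25.4).

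*Crabp1* lies at chr9:54764748-54773110 on the plus strand (GRCm38, GENCODE M21) and no other listed gene overlaps it. In bulb spots it reached 25.5, 42.8, 38.2 and 34.9 CPM in slices 1 to 4. Distant spots held 10.3, 7.47, 8.65 and 8.99 CPM, below every bulb value. The log2 fold was 1.94 ± 0.17 (SE; edgeR adjusted p = 2.6e-09). A *Crabp1* UMI was found in 156 of 511 bulb spots (30.5%, exact 95% interval 26.6 to 34.7%), against 8 of 364 outer root sheath (ORS)-rich spots (2.20%, 0.954 to 4.28%; median 11117.5 UMIs). With every spot thinned to 5500 UMIs the shares were 9.90% ± 2.39 and 2.15% ± 1.19 (SD, n = 4 slices). Such intervals cover counting error only, and ORS-rich spots were among the compartments lowest in *Crabp1*.

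*Inhba* lies at chr13:16011851-16031621 on the plus strand, where the predicted gene *Gm48444* overlaps it on the other strand. Bulb spots held 24.5, 19.3, 35.9 and 29.8 CPM in slices 1 to 4, and distant spots 3.77, 3.14, 4.26 and 5.78 CPM. The lowest bulb value was above the highest distant value by a wide margin, with a log2 fold of 2.65 ± 0.21 (edgeR adjusted p = 9e-10). An *Inhba* UMI was found in 28.0% of bulb spots (24.1 to 32.1%) against 2.62% of hair shaft-rich spots (1.31 to 4.64%; median 11566 UMIs). Thinned to 5500 UMIs the shares were 11.5% ± 2.46 and 2.10% ± 1.10. Of the compartments, hair shaft-rich spots lay furthest below the bulb in *Inhba* (log2 fold of bulb over hair shaft-rich spots 3.33 ± 0.36).

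Both genes also stood above each other compartment. *Crabp1* and *Inhba* were called higher in bulb spots than in each of 13 compartments, as were 43 of the 10402 genes tested (0.413%). *Inhba* passed the filter in this comparison through the bulb, where it is highest, so its calls carry little beyond its counts. Against fibroblast-rich spots the log2 folds were 1.85 ± 0.39 for *Crabp1* (edgeR adjusted p = 5.8e-05) and 2.55 ± 0.46 for *Inhba* (edgeR adjusted p = 4.7e-06), beside 9.42% of genes called higher. Fibroblast-rich spots held 9.19, 2.46, 14.2 and 11.9 CPM of *Crabp1* and 4.59, 2.46, 7.10 and 2.99 CPM of *Inhba*, from 15 and 7 UMIs in all. With spots thinned to 5500 UMIs neither gene passed the filter there, and with each slice split by position into 3 strips as units *Crabp1* alone did and was called. Of 8 muscle genes 6 were also called higher in bulb than in fibroblast-rich spots, and none against distant spots, and their part was not tested. The smallest fold of *Crabp1* was against upper HF-rich spots (1.03 ± 0.27) and that of *Inhba* against muscle-rich spots (1.35 ± 0.25). The *Crabp1* call against the upper HF was lost without replicate 2 (log2 fold 0.77), without replicate 3 (0.94) or without replicate 4 (0.97), and it held in 13 of 20 alternatives. With the 90th percentile or *Tyrp1* alone choosing the bulb spots, *Crabp1* was called against 10 of the 13 compartments, and with upper skin bulb spots left out or a stricter compartment z score against 12. *Inhba* was called against 12 with *Tyrp1* alone, where its fold against muscle-rich spots was 0.79.

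The second place of *Crabp1* was the upper skin. After the bulb (35.4 ± 7.34 CPM, SD, n = 4 slices) came upper HF-rich (16.2 ± 7.41), IFE-rich (15.1 ± 1.25), immune-rich (14.8 ± 5.71) and sebaceous-rich spots (14.8 ± 3.70), whose ranges overlapped. Lowest were ORS-rich (3.09 ± 2.69), hair shaft-rich (2.99 ± 1.31) and IRS-rich spots (1.62 ± 1.12). After the bulb (27.4 ± 7.11 CPM), *Inhba* was next highest in muscle-rich (9.66 ± 3.89) and IFE-rich spots (6.67 ± 3.09). The remaining compartments lay between 2.26 and 6.13 CPM with overlapping ranges.

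**Figure D2:**
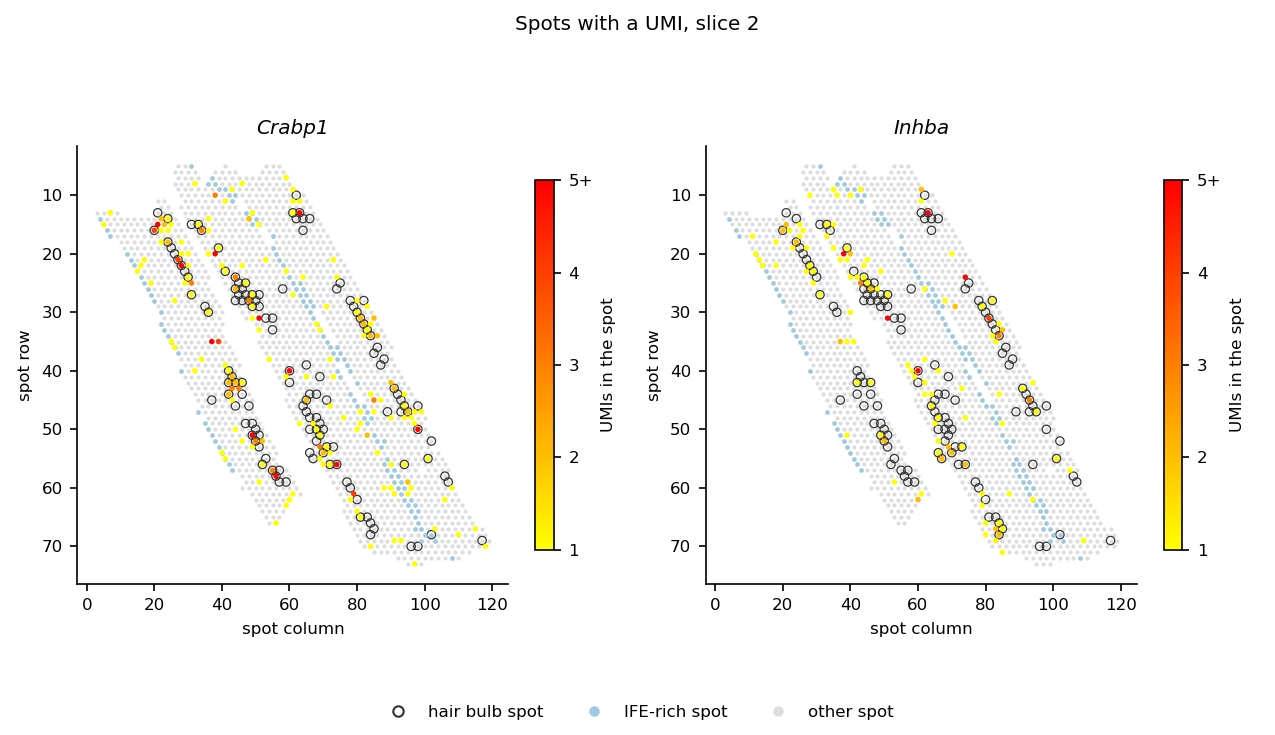
Slice 2 on the spot grid (axes are the row and column of a spot), with bulb spots circled, IFE-rich spots in blue and spots with at least 1 UMI of *Crabp1* (left) or *Inhba* (right) coloured by their UMIs. Of 178 spots with *Crabp1*, 51 were bulb spots and 101 were bulb spots or neighbours, and of 116 spots with *Inhba*, 35 and 73.

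RefSeq promoter sequences (GRCm38.p6, 250 bases before to 50 after the start) were given for 4 of the 8 genes. Those of *Crabp1* and *Inhba*, the genes that marked the bulb, are shown 5′ to 3′ on the gene's strand. Capitals mark matches on either strand to the TATA box letters, written TATAAA, to CTTTGA (the core bound by TCF/LEF factors), to TAATTA (a homeodomain core) or to ACAAAG (a SOX core). No match overlapped another. They are held by 4473, 5257, 1738 and 6147 of all 32851 promoters of this length (TATAAA by 13.6% and ACAAAG by 18.7%).
Crabp1 (chr9:54764498-54764797, plus strand): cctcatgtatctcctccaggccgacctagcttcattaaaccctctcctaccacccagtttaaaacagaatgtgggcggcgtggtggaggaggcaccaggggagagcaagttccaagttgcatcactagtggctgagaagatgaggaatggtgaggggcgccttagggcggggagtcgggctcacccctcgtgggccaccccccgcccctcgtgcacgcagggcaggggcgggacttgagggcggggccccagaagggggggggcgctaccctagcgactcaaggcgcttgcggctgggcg
Inhba (chr13:16011601-16011900, plus strand): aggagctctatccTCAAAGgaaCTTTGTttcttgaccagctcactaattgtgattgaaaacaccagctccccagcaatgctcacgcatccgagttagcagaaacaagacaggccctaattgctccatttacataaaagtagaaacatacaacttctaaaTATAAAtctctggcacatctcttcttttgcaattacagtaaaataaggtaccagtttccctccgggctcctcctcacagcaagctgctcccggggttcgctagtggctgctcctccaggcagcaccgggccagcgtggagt
The promoter of *Crabp1* held none of the 4 motifs, and 65.0% of its bases were G or C against a median of 52.7% over all promoters. That of *Inhba* had 47.7% G or C and 1 match each to the TATA box, the TCF/LEF core and the SOX core. A match describes the letters and not a bound site.

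*Alx4* lies at chr2:93642384-93681339 on the plus strand and overlaps *Ext2* on the other strand. Since the sources used here do not say whether counting used the strand, reads of such partners cannot be told apart. *Alx4* had 125 UMIs in all, 55 of them in slice 3. Bulb spots held 2.29, 2.22, 6.95 and 3.88 CPM in slices 1 to 4, and distant spots 0.222, 0.758, 2.07 and 0.803 CPM, so that each slice was higher in the bulb. The log2 fold was 1.91 ± 0.58 (edgeR adjusted p = 0.0074), and the pooled counts of 41 and 30 UMIs gave a ratio of 3.96 (exact 95% interval 2.41 to 6.57). Fibroblast-rich spots held 1 UMI of *Alx4*, so the bulb to fibroblast ratio of 5.89 ran from 1.00 to 238 and the gene did not enter that test.

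*Fst* encodes the secreted partner that binds and blocks activin. It lies at chr13:114452290-114458951 on the minus strand, where *Gm47040* overlaps it on the other strand. Bulb spots held 8.498, 12.4, 22.4 and 16.8 CPM of *Fst*, and distant spots 19.1, 26.5, 27.9 and 31.6 CPM. In each slice the bulb was lower (log2 fold −0.88 ± 0.20, edgeR adjusted p = 0.00062), which is short of the fold required. Without replicate 3 the fold was −1.08 and was called lower.

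The highest *Fst* level was in upper HF-rich spots, with 46.3, 44.4, 51.7 and 61.1 CPM, above every slice of every other compartment but 1 sebaceous-rich value of 47.0. Bulb spots lay below them by a log2 fold of −1.88 ± 0.22 (edgeR adjusted p = 2.1e-11). Next came sebaceous-rich (31.2 ± 12.0 CPM, SD), fibroblast-rich (29.8 ± 7.29), immune-rich (28.4 ± 10.2) and endothelium-rich spots (26.7 ± 10.1), whose ranges overlapped. IRS-rich spots were lowest (6.54 ± 1.09 CPM). Against fibroblast-rich spots the bulb was called lower for *Fst* (log2 fold −1.05 ± 0.30, edgeR adjusted p = 0.0032), beside 16.8% of genes. This call held in 12 of 20 alternatives. It was lost with spots thinned (−0.20) or bulb spots chosen by *Top2a* alone (−0.32), where *Tyrp1* alone gave −2.24, and without replicate 1 (−0.99), replicate 2 (−0.996) or replicate 4 (−0.97).

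*Vcan* (chr13:89655312-89742509, minus strand, with *Gm4117* on the other strand) was the only one of the 8 called higher in fibroblast-rich than in IFE-rich spots, beside 3.63% of genes. Fibroblast-rich spots held 13.8, 22.2, 23.7 and 41.8 CPM and IFE-rich spots 10.6, 7.20, 7.68 and 8.33 CPM, which did not overlap. The log2 fold was 1.44 ± 0.36 (edgeR adjusted p = 0.002), and *Vcan* no longer passed the filter with spots thinned or with strips as units. Bulb spots, with 6.86, 11.7, 10.4 and 11.2 CPM, were called lower than fibroblast-rich spots (−1.33 ± 0.31, edgeR adjusted p = 0.00028). Against distant spots, which held 9.99 to 16.5 CPM, it was not called (−0.33 ± 0.18, edgeR adjusted p = 0.13).

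IFE-rich spots also held much fibroblast RNA. The 9 fibroblast genes summed to 23635 to 31276 CPM there, against 47179 to 55879 CPM in fibroblast-rich and 1542 to 2944 CPM in IRS-rich spots. Of these genes *Col3a1*, *Dpt*, *Mfap5* and *Pdgfra* were called higher in fibroblast-rich than in IFE-rich spots. *Col1a1* (log2 fold 0.67 ± 0.22), *Col1a2*, *Dcn* (0.98 ± 0.17), *Lum* and *Sparc* were not. So a gene that missed the rule cannot be said not to be dermal. With IRS-rich spots as the reference, a comparison added after the values had been seen, *Crabp1* (log2 fold 2.23 ± 0.73), *Fst* (2.04 ± 0.40) and *Vcan* (1.83 ± 0.38) were called higher in fibroblast-rich spots, beside 12.0% of genes. *Inhba* (0.29 ± 0.72) and *Trps1* (0.15 ± 0.33) were not called. So *Vcan* was called against both references, *Crabp1* and *Fst* against IRS-rich spots alone, and *Inhba* against neither. IRS-rich spots held the least *Crabp1* and *Fst* of the compartments, so these calls do not make either gene dermal. Beyond both references, *Vcan* in fibroblast-rich spots was called only above hair shaft-rich spots (log2 fold 2.28 ± 0.39). It was not called against the others, such as upper HF-rich (1.05 ± 0.36, edgeR adjusted p = 0.066) or smooth muscle-rich spots (0.51 ± 0.35, edgeR adjusted p = 0.74). Fibroblast-rich spots held few UMIs of each gene, from 7 for *Inhba* to 47 for *Fst*, which limits what the test can show.

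*Trps1* (chr15:50654752-50890463, minus strand) was found in every compartment. Bulb spots held 24.5, 27.0, 29.0 and 36.7 CPM and distant spots 18.4, 19.5, 21.2 and 22.3 CPM. The ranges did not overlap, but the log2 fold was 0.46 ± 0.10 (edgeR adjusted p = 0.00042), under the fold required. Muscle-rich (27.5 ± 4.77 CPM) and endothelium-rich spots (26.5 ± 7.41) were within the spread of the bulb (29.3 ± 5.25), and hair shaft-rich spots were lowest (11.5 ± 1.77). The bulb and fibroblast-rich spots differed by a log2 fold of 0.62 ± 0.27 (edgeR adjusted p = 0.053).

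**Figure D3:**
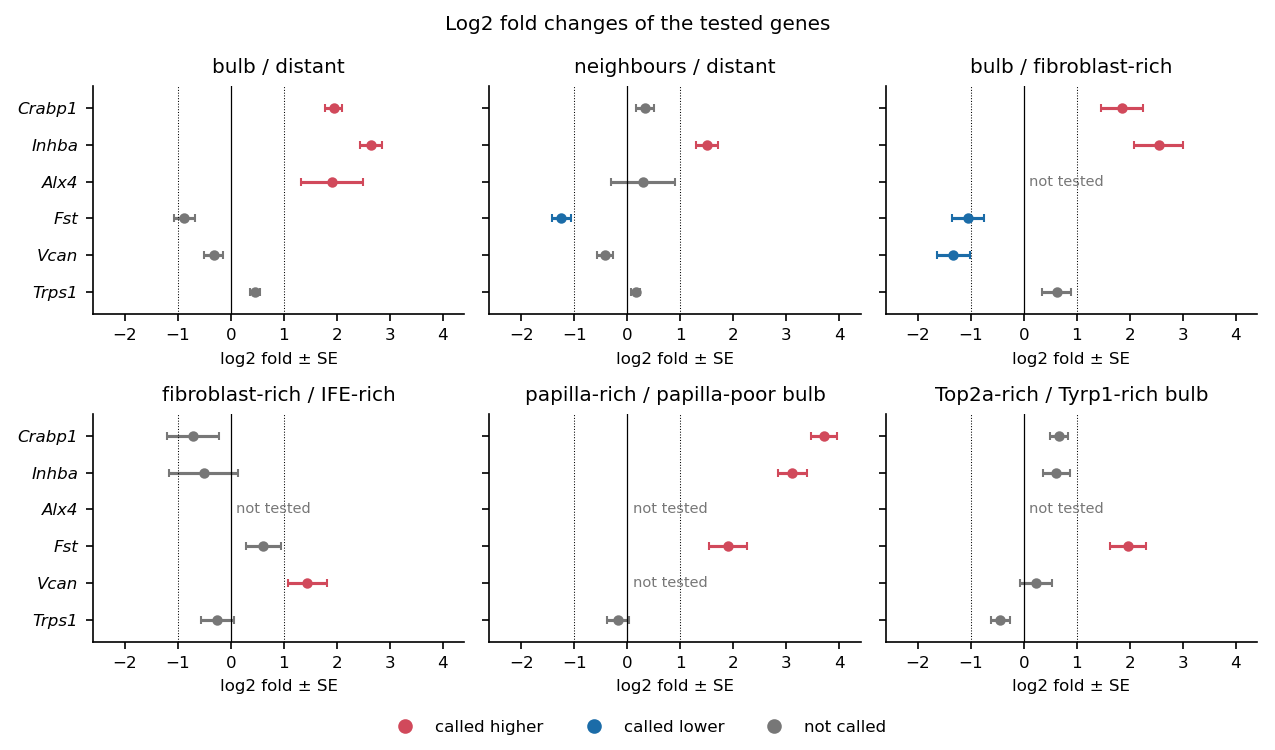
Log2 fold changes with their SE (horizontal axis) of 6 genes in 6 comparisons, in red where called higher, in blue where called lower and in grey where not called, with dotted lines at a log2 fold of 1 either way. *Crabp1* and *Inhba* were called higher in bulb spots against both references and *Vcan* in fibroblast-rich against IFE-rich spots.

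*Prom1* and *Sox18* did not mark the bulb in this skin. *Prom1* (chr5:43993620-44102032, minus strand, with *Gm42716* and *Gm16401* overlapping) had 4 UMIs in bulb spots and 50 in distant spots, a ratio of 0.232 (exact 95% interval 0.0608 to 0.632), and was lower in the bulb in 4 of 4 slices. Its highest level was in smooth muscle-rich spots, 3.05 CPM from 7 UMIs. *Sox18* (chr2:181669836-181671640, minus strand), which also acts in vessels, had 55 UMIs in all and none in 511 bulb spots, which allows a share of up to 0.587%. Distant spots held 21 UMIs, and the exact 95% interval of the bulb to distant ratio reached 0.556. Endothelium-rich spots held 7 UMIs (2.28 CPM), and the interval of their ratio to the bulb began at 5.22. Neither gene passed the filter, so neither was tested across genes.

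Neighbours of bulb spots held more *Inhba* than distant spots. *Inhba* reached 10.5, 9.64, 15.1 and 12.5 CPM in neighbours, in each slice between the bulb and the distant value. It was the only one of the 8 called higher (log2 fold 1.51 ± 0.21, edgeR adjusted p = 3.6e-06), beside 4.28% of genes. *Crabp1* held 11.2, 13.5, 10.04 and 9.94 CPM in neighbours (log2 fold 0.33 ± 0.17, edgeR adjusted p = 0.1) above the distant value in each slice but not called, and *Alx4* 0.315 to 2.70 CPM (0.29 ± 0.61, edgeR adjusted p = 0.7). *Fst* was called lower in neighbours, with 10.5, 12.5, 7.94 and 13.2 CPM (−1.24 ± 0.17, edgeR adjusted p = 4e-06), beside 9.40% of genes, and the call was lost with the 98th percentile (−0.97) or *Tyrp1* alone (−0.79) choosing the bulb spots. Between bulb spots and their neighbours *Crabp1*, *Inhba* and *Alx4* were called higher in the bulb (log2 folds 1.61 ± 0.16, 1.14 ± 0.18 and 1.61 ± 0.57), beside 0.743% of genes. Here too *Alx4* passed the filter through the bulb, so its call carries little beyond its counts.

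The fall with distance had different shapes. Neighbours held 32.5% ± 7.84 of the bulb level of *Crabp1* and 44.1% ± 3.82 of that of *Inhba* (SD, n = 4 slices). The matrix gene *Mki67* kept 66.5% ± 7.92 and the pigment gene *Dct* 20.5% ± 3.14. *Crabp1* fell to 5.34 ± 2.73 CPM at 3 steps and stood at 15.4 ± 1.82 CPM at 6 or more steps, higher in each slice. *Inhba* fell to 2.53 ± 0.55 CPM at 4 steps and was 5.62 ± 1.94 CPM at 6 or more. *Fst* went the other way, from 11.05 ± 2.38 CPM at 1 step to 31.2 ± 9.32 CPM at 6 or more.

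**Figure D4:**
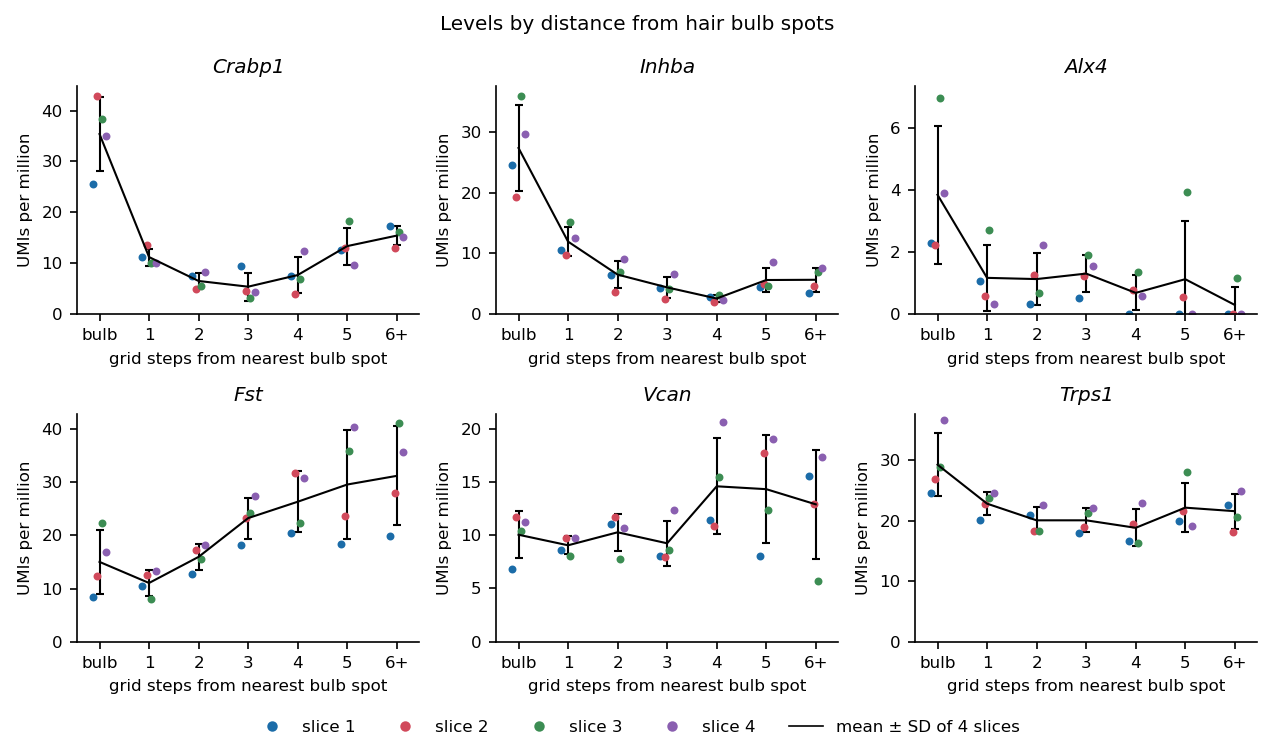
UMIs per 1e6 (vertical axis) by grid steps from the nearest bulb spot (horizontal axis), with 1 point per slice and the mean ± SD of 4 slices. *Crabp1* fell from 35.4 in bulb spots to 5.34 at 3 steps and stood at 15.4 at 6 or more, while *Fst* was lowest at 1 step (11.05).

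Neighbours held 4274 to 5987 CPM of the 9 fibroblast genes and distant spots 16755 to 20322 CPM, so adipose-rich spots were compared with each other. Of the 8 genes 3 passed the filter and 0 were called higher in adipose-rich neighbours by edgeR or by DESeq2, since all 3 had folds below 0. *Fst* was called lower (log2 fold −1.18 ± 0.31, edgeR adjusted p = 0.0042), beside 7.17% of genes, and this call was lost without replicate 1 (−0.96). *Fst* had 31 UMIs in the adipose-rich neighbours and 61 in the adipose-rich distant spots. It passed the filter through the distant spots, where it is higher, so its call carries little beyond its counts. The adipose-rich spots were not matched in other tissue. All 5 tested upper HF genes were called lower in the neighbours too, among them *Cst6* (−3.11 ± 0.45) and *Lrig1* (−1.57 ± 0.20), with the list at 431 to 611 CPM against 3328 to 5668 CPM. *Col1a1* (−1.09 ± 0.31) and *Col1a2* (−1.03 ± 0.27) were the 2 of 9 fibroblast genes called lower. The part of these genes in the *Fst* result was not tested. Genes of the bulb went the other way and were called higher in the adipose-rich neighbours, among them *Mki67* (1.56 ± 0.22), *Dct* (1.48 ± 0.20), *Mycn* (2.39 ± 0.34) and *Wif1* (1.77 ± 0.41). So was the muscle gene *Myh1* (1.35 ± 0.28). The part of bulb and muscle RNA in the *Inhba* and *Crabp1* counts that follow was not tested. *Inhba* did not pass the filter. It had 27 UMIs in adipose-rich neighbours and 9 in adipose-rich distant spots, a ratio of 2.55 (1.17 to 6.17), and was higher in the neighbours in 4 of 4 slices. *Crabp1* had 27 and 12 UMIs (ratio 1.91, 0.938 to 4.15). Fibroblast-rich neighbours numbered 10 spots and were not compared.

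Within the bulb, *Crabp1* and *Inhba* were higher where the other dermal papilla genes were. Bulb spots in the upper tertile of their slice by the summed CPM of the 20 other genes (papilla-rich, 169 spots) were compared with the lower tertile (papilla-poor, 169 spots). None of the 8 genes is on that list. *Crabp1* was at 58.4, 85.8, 85.6 and 80.5 CPM in papilla-rich spots and at 6.98, 7.86, 2.35 and 5.11 CPM in papilla-poor spots (log2 fold 3.71 ± 0.25, edgeR adjusted p = 2.1e-09). *Inhba* was at 52.6, 39.8, 78.3 and 66.9 CPM against 4.98, 5.89, 7.05 and 8.95 CPM (3.11 ± 0.27, edgeR adjusted p = 7.7e-08). The papilla-poor levels of both genes were within the range of the compartments outside the bulb.

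*Fst* was also called higher in papilla-rich bulb spots, with 12.7, 18.6, 39.7 and 27.3 CPM against 3.99, 5.89, 9.40 and 6.39 CPM (log2 fold 1.90 ± 0.36, edgeR adjusted p = 0.0019). The share of all genes called higher was 0.707%. *Crabp1*, *Inhba* and *Fst* had 21, 24 and 23 UMIs in papilla-poor spots and passed the filter through the papilla-rich spots, so that their being called together adds nothing to their levels. *Trps1*, at 28.4 ± 7.62 and 31.8 ± 6.58 CPM, was not called (−0.18 ± 0.21). *Alx4* (29 and 4 UMIs, ratio 6.76, 2.37 to 26.4) and *Vcan* (60 and 22 UMIs, ratio 2.54, 1.54 to 4.35) did not pass the filter and were higher in the papilla-rich spots of each slice. With no filter on low genes both were called higher as well, with spots thinned *Inhba* alone passed the filter and was called, and with strips as units none of the 8 passed it. So *Vcan* and *Fst*, which did not mark the bulb as a whole, were higher in the bulb spots with the most dermal papilla RNA.

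Other lists moved with this split. Papilla-rich spots held 2626 to 4104 CPM of the 9 fibroblast genes against 1860 to 2566 CPM, and 911 to 1062 CPM of the 7 proliferation genes against 618 to 712 CPM, with all genes of both lists detected in both classes. No gene of these lists was called. The 7 IRS genes were at 19789 to 24653 CPM against 28588 to 32409 CPM and the 6 hair shaft genes at 1802 to 2977 CPM against 3625 to 5252 CPM, both lower in papilla-rich spots without overlap. *Krt31* of the hair shaft (log2 fold −1.06 ± 0.25) and *Soat1* of the sebaceous list (−1.18 ± 0.15) were called lower. The melanocyte list overlapped (1881 to 2887 against 1774 to 2743 CPM). The part of these lists in the result was not tested, and neither was that of the median depth, 22956 against 20574 UMIs. In any spot, fewer cells of a type and less RNA per cell cannot be told apart.

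**Figure D5:**
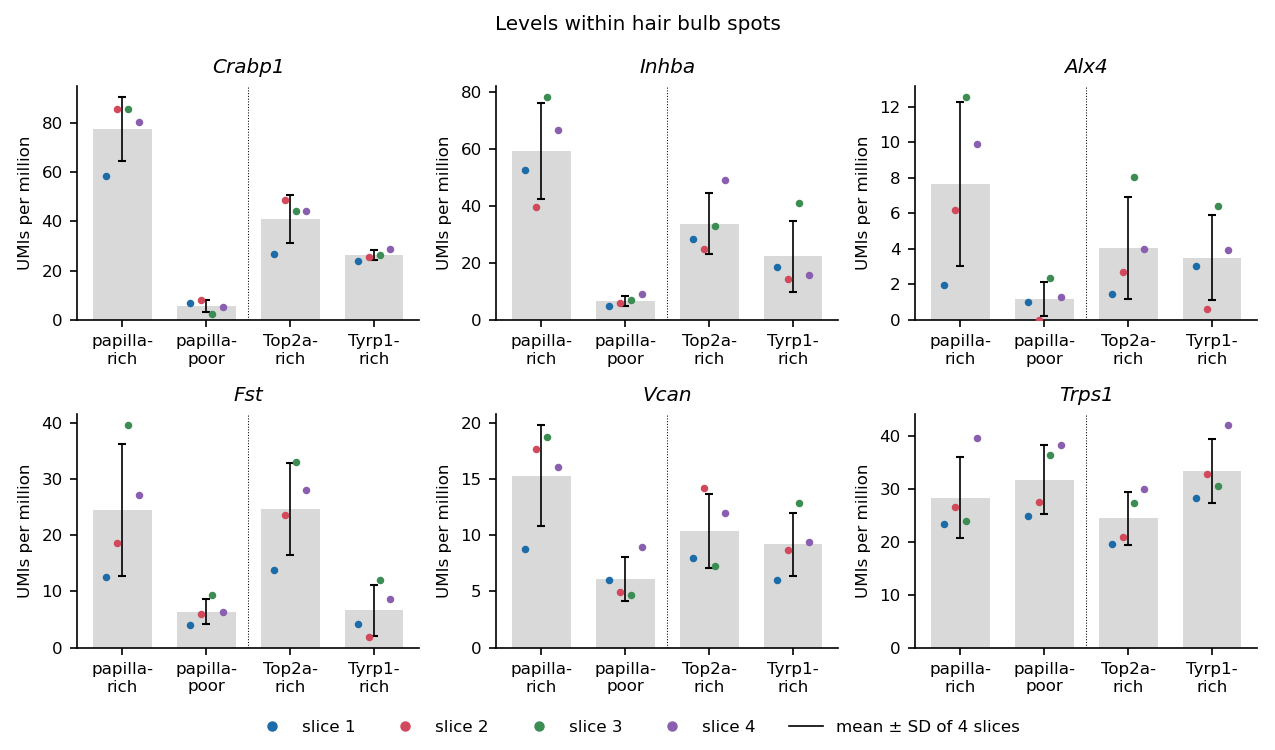
UMIs per 1e6 (vertical axis) of 6 genes in papilla-rich and papilla-poor bulb spots (left of the dotted line) and in bulb spots rich in *Top2a* or in *Tyrp1* (right), with 1 point per slice, bars for the mean and lines for the SD of 4 slices. *Crabp1* was at 77.6 in papilla-rich and 5.57 in papilla-poor spots, and *Fst* at 24.6 in *Top2a*-rich and 6.68 in *Tyrp1*-rich spots.

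The bulb spots chosen by *Top2a* (216) and by *Tyrp1* (287) differed in *Fst*. It was at 13.8, 23.7, 33.0 and 28.1 CPM in *Top2a*-rich and at 4.22, 1.86, 12.1 and 8.59 CPM in *Tyrp1*-rich spots, and was the only one of the 8 called higher (log2 fold 1.96 ± 0.34, edgeR adjusted p = 0.00014), beside 4.41% of genes. *Fst* had 36 UMIs in *Tyrp1*-rich spots and passed the filter through the *Top2a*-rich spots, so its call carries little beyond its counts. Other genes moved with *Fst*. The fibroblast genes *Dcn* (1.55 ± 0.13) and *Mfap5* (1.02 ± 0.25) and the dermal papilla genes *Hhip* (1.27 ± 0.31) and *Wif1* (1.20 ± 0.18) were called higher in *Top2a*-rich spots, and 4 of 7 IRS genes and 2 of 6 hair shaft genes lower. Their part was not tested. *Crabp1* was at 41.0 ± 9.67 and 26.2 ± 2.04 CPM (0.67 ± 0.17, edgeR adjusted p = 0.005), under the fold required. *Inhba* was at 33.9 ± 10.7 and 22.4 ± 12.5 CPM (0.62 ± 0.26, edgeR adjusted p = 0.073), and without replicate 3 it was called higher too (1.02). With spots thinned, with strips as units or with the 98th percentile as the threshold, *Fst* did not pass the filter. Against distant spots, *Fst* in bulb spots chosen by *Top2a* alone was not called (log2 fold 0.04), and in those chosen by *Tyrp1* alone it was called lower (−1.84). *Crabp1*, *Inhba* and *Alx4* were called higher than in distant spots with either choice.

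A bulb spot with a *Crabp1* UMI also held more of the other dermal papilla genes at matched depth. Among bulb spots thinned to 5500 UMIs, 50 with *Crabp1* held 520 ± 195 CPM of the 20 other genes and 452 without it held 191 ± 18.1 CPM (SD, n = 4 slices), higher in 4 of 4 slices (exact two-sided sign-flip p = 0.125, the smallest that 4 slices allow). *Inhba* was at 62.2 ± 34.8 and 19.9 ± 5.78 CPM, higher in 3 of 4 slices (exact sign-flip p = 0.25). Other lists moved too. The proliferation list was at 949 ± 144 and 700.4 ± 47.7 CPM, higher in 4 of 4 slices (exact sign-flip p = 0.125), and the melanocyte list at 3176 ± 869 and 2161 ± 351 CPM, higher in 3 of 4. The fibroblast list was at 3924 ± 1798 and 4047 ± 1023 CPM, and the part of these lists was not tested.

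Genes that act with these 8 are read against the 7.12% of all genes called higher and 17.4% called lower in bulb against distant spots. Of 10 activin pathway genes tested, none was called higher in bulb than in distant spots, and *Inhbb*, the other activin subunit (log2 fold −2.24 ± 0.17), and *Tgfbr3*, which encodes betaglycan (−1.74 ± 0.12), were called lower. The receptor genes *Acvr1b* (−0.22 ± 0.15), *Acvr2a* (−0.68 ± 0.14) and *Acvr2b* (−0.21 ± 0.33) were not called. Of 7 tested genes that bind, build or cut the versican and hyaluronan matrix, none was called higher, and *Adamts5*, a protease that cuts versican (−1.73 ± 0.18), and *Fbn1*, fibrillin-1 (−1.57 ± 0.09), were called lower. The medians over these lists were −0.22 and −0.74, against −0.00156 for all genes, and nothing is read from so few calls.

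Of 10 relatives of the 8 genes 5 passed the filter, and 3 were called lower in bulb than in distant spots and none higher, beside 17.4% and 7.12% of all genes. *Crabp2*, the other cytosolic retinoic acid-binding protein, was among them (log2 fold −2.59 ± 0.13) and was also called lower in papilla-rich than in papilla-poor bulb spots (−1.32 ± 0.33), the reverse of *Crabp1* in both. The others were *Sox7* (−2.94 ± 0.36) and *Sox17* (−1.42 ± 0.32), of the same SOX group as *Sox18*. Of 6 hair matrix genes 5 were called higher in bulb spots, beside 7.12% of all genes, among them *Mycn* (2.54 ± 0.11) and *Lef1* (2.38 ± 0.12), and none was called between papilla-rich and papilla-poor spots.

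The genes most like each of the 8 were sought over 60 sums (15 classes of spots in 4 slices), by Pearson's r of log2(CPM + 5) among genes with a mean of at least 5 CPM. These sums share slices and sections, and r is a description. *Crabp1* was most like *Moxd1* (r = 0.76), *Ptn* (0.75) and *Apcdd1* (0.69). *Inhba* was most like *Pmel* (0.78), *Mt2* (0.77) and *Hnrnpu* (0.77), *Vcan* like *Mgp* (0.75), *Ogn* (0.70) and *Tpst1* (0.69), and *Fst* like *Arpc5* (0.79), *Ssbp3* (0.79) and *Glul* (0.79). The sums include the bulb class, which the pigment gene *Tyrp1* helped to choose. Within the bulb the pigment gene *Pmel*, unlike *Inhba*, was not called between papilla-rich and papilla-poor spots (log2 fold 0.18 ± 0.14). It was called lower in *Top2a*-rich than in *Tyrp1*-rich spots (−3.35 ± 0.12). *Alx4* was most like *Kat2a* (0.65) and *Kitl* (0.62), and *Trps1* like *Fam120a* (0.66). The sparse *Prom1* (*Syt11*, 0.61) and *Sox18* (*Mmrn2*, 0.55, and *Kdr*, 0.52, both endothelial genes) had lower values. Among the 8, the highest r was between *Crabp1* and *Inhba* (0.51), and *Fst* and *Inhba* were at −0.14.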

How the data were processed

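The authors deposited UMI counts per gene and spot for the 4 slices, made with Space Ranger 2.0.1 on mm10 per the labels. Spots under 250 genes were dropped, and the study's distorted section, whose spots the sources used here do not give, was not left out. Compartments were the marker list with the highest z score in a spot, of at least 1. UMIs were summed per slice and class and CPM computed from the sums. edgeR 4.0.16 in R 4.3.3 (filterByExpr, TMM, quasi-likelihood test) was fitted to all genes with slices as replicates, and a gene was called at a Benjamini-Hochberg adjusted p under 0.05 and a log2 fold of at least 1. Sums of a slice come from the same sections, so the slice also pairs them, and their deviations correlated at 0.25, 0.19, 0.093 and 0.12 over 13321 genes. Sparse genes were given as ratios of pooled counts with exact 95% intervals (scipy 1.17.1). Shares were thinned to 5500 UMIs per spot, which left out 563 spots. Named genes were the 8 genes, called or discussed members of the pathway lists, and the 3 genes most like each. The 8 genes and all lists were chosen with earlier results of these data known. Alternatives were DESeq2 1.42.0, library size alone, no filter, a slice block, thinning, strips, other bulb and compartment rules and leaving out each slice. The fitting step was first tested on simulated data.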

Additional observations from a re-analysis of the deposited data

Results flagged for a closer look

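In 1 of 34 groups of 4 slices with at least 20 UMIs, a slice lay far from the others. The *Crabp1* level of upper HF-rich spots was 27.2 CPM in replicate 1, against 11.1, 12.9 and 13.6 CPM in the others. Chance marks about 1 in 20 groups by this rule.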

How the results depend on the processing

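The counts of the 8 genes called higher in bulb and in neighbour against distant spots kept within 1.5 times under 18 alternatives each, and the folds of *Alx4* (1.66 to 2.48), *Crabp1* (1.39 to 2.36) and *Inhba* (1.82 to 2.85) in the bulb stayed called wherever they were tested. *Alx4* is tested only where its bulb counts let it pass the filter, so its repeated calls add little to those counts. With spots thinned, the number called higher was 0 for bulb against fibroblast-rich, 0 for fibroblast-rich against IFE-rich, 1 for papilla-rich against papilla-poor and 0 for *Top2a*-rich against *Tyrp1*-rich spots. With strips as units these were 1, 0, 0 and 0. In each case fewer of the 8 passed the filter. With no filter on low genes 5 were called in papilla-rich spots. With the 98th percentile 0 were called in *Top2a*-rich spots and 1 (*Crabp1*) in adipose-rich neighbours. With IRS-rich spots as the reference 3 were called in fibroblast-rich spots. Leaving out 1 slice gave 1 to 2 called for *Top2a*-rich spots. Folds that changed sign were uncalled before and after, and the cause was not tested. These were *Fst* in bulb against distant spots with *Top2a* alone (0.040), *Alx4* in neighbours without 1 replicate (−0.020 to 0.54), and *Crabp1* in neighbours with spots thinned (−0.092), the 90th percentile (−0.064) or marker lists for the bulb (−0.17). Between fibroblast-rich and IFE-rich spots they were *Fst* with spots thinned (−0.0070) and *Trps1* with a summed score (0.084), the fibroblast z alone (0.18) or without 1 replicate (−0.69 to 0.12). The others, at the 98th percentile, were *Trps1* in papilla-rich spots (0.15), *Crabp1* in *Top2a*-rich spots (−0.068) and *Vcan* in adipose-rich neighbours (0.27), and *Vcan* in *Top2a*-rich spots without 1 replicate (−0.013 to 0.54). The slice as a replicate block changed none of these calls and gave 956 in place of 949 genes called higher in bulb against distant spots. Over all genes, *Tyrp1* alone gave 392 in that comparison. For bulb against fibroblast-rich spots thinning gave 608 and strips 554 in place of 980, and for papilla-rich spots thinning gave 15, strips 5, no filter 132 and leaving out replicate 3 gave 40 in place of 61. The fibroblast z alone, steps within strips and the IRS-rich reference were chosen after seeing the data. Depth limits *Alx4*, *Prom1* and *Sox18* to pooled counts.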
